A study of Rattus norvegicus with 6 samples.

Results

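The glycine receptor genes Glra1, Glra2, Glra3 and Glrb and the scaffold gene Gphn were examined in cultured rat retinal ganglion cells (RGCs), whose axons form the optic nerve. The 5 genes were chosen by symbol from a table of 17366 transcripts, 1 per gene, and all 5 were found. RNA came from RGCs of Sprague Dawley rats labelled P5, grown in culture for 10 days. In 3 libraries the cells had received recombinant Chrdl1 at 1 µg/ml for 12 h, and in 3 libraries the vehicle of 0.1% BSA and 4 mM HCl. Chordin-like 1 is secreted, in the brain by astrocytes, and blocks signalling by bone morphogenetic proteins (BMPs). The series asks whether adding it changes the RGC transcriptome. A code at the end of each title joins 1 Chrdl1 with 1 vehicle library, giving pairs A, B and C; the labels do not say what it marks. They name no separate animals or cultures either, so every p-value here rests on library-to-library spread, which may be technical.

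Glycine receptors are chloride channels built of 5 subunits. The alpha subunits carry most of the glycine-binding face and can form channels alone, whereas the beta subunit, encoded by Glrb, holds the receptor at the synapse by binding gephyrin, the product of Gphn. Gephyrin forms a lattice under inhibitory synapses, also anchors many GABA-A receptors, and outside the synapse completes the molybdenum cofactor. In the retina, RGCs receive glycine mainly from amacrine cells, through receptors that differ in their alpha subunit.

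The read totals behind the values ran from 22870500 to 24198700 in the Chrdl1 libraries and from 14546600 to 26551800 in the vehicle libraries, with the vehicle library of pair B the shallowest. FPKM divides the fragments of a transcript by its length and by the library's read total. The extraction label names visual cortex, where every other label names RGCs. Of 14 RGC markers, 13 were in the table and their summed FPKM was 3200 to 4150 in Chrdl1 and 3370 to 4140 in vehicle libraries. Most of each sum came from Sncg (819 to 1110 FPKM), Stmn2 (646 to 873), Nefl (524 to 632) and Tubb3 (307 to 619). Rbpms was at 78.4 to 98.1 FPKM, Isl1 at 36.1 to 48.3 and Pou4f2 at 24.6 to 38.0. The sum was not tested as a measure of RGC identity. The 7 Müller glia and astrocyte markers summed to 68.8 to 150 FPKM in Chrdl1 and 80.2 to 161 FPKM in vehicle libraries, mostly from Glul (51.5 to 82.5 FPKM) and Vim (16.7 to 70.9 FPKM), while Gfap was at 0.065 to 1.24 FPKM. Pair C stood apart from the others in both of its libraries. Its 7 bipolar cell markers summed to 48.7 FPKM in the Chrdl1 and 49.3 FPKM in the vehicle library, against 6.77 to 9.45 FPKM in pairs A and B. Its 8 photoreceptor markers summed to 50.6 FPKM in the Chrdl1 and 50.2 FPKM in the vehicle library, against 2.55 to 6.06 FPKM elsewhere, although Pde6a, Pde6b, Gnat1 and Sag stayed under 1 FPKM in all 6 libraries. The 8 microglia markers were lowest in pair B, at 5.55 FPKM in the Chrdl1 and 10.4 FPKM in the vehicle library, against 103 to 137 FPKM elsewhere. No marker was at 0 in all 6 libraries.

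Transcripts for the beta subunit and the scaffold were abundant and those for the alpha subunits were lower. Over the 6 libraries Glrb averaged 61.1 FPKM and ranked 997 of the 17366 transcripts, above 94.1% of the protein-coding ones. Gphn averaged 22.2 FPKM, above 79.9% of them. Glra1, encoding the alpha subunit typical of adult brainstem and spinal cord synapses, averaged 3.09 FPKM, above 47.4%. Glra2, encoding the subunit known as the main fetal form in the central nervous system, averaged 1.39 FPKM, above 40.8%. Glra3, encoding a subunit known from retina and spinal cord pain pathways, averaged 0.898 FPKM, above 37.8%. Another alpha gene, Glra4, which is not among the 5, rested on 0 to 3 reads per library and was at most 0.081 FPKM. The order Glrb, Gphn, Glra1, Glra2, Glra3 held in each of the 6 libraries, and no gene's range over the libraries overlapped that of its neighbour. Within a library, however, the 95% Poisson intervals of the reads of Glra2 and Glra3 overlapped, except in the vehicle library of pair A. In the vehicle library of pair B they were 0.995 to 1.68 FPKM for Glra2 and 0.472 to 1.34 FPKM for Glra3. FPKM of different genes depends on the listed transcript lengths, 1481 bases for Glrb, 3104 for Gphn, 2114 for Glra1, 3162 for Glra2 and 1333 for Glra3. In bulk RNA, fewer cells that express a gene and less of its RNA per cell cannot be told apart.

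On build rn6, as the table gives it, Glra1 lies on the minus strand of chromosome 10 from 40855559 to 40953651, and Glra2 on the minus strand of chromosome X from 30612894 to 30831483. Glra3 lies on the minus strand of chromosome 16 from 37676959 to 37908221. Glrb lies on the minus strand of chromosome 2 from 179771149 to 179841130, and Gphn on the plus strand of chromosome 6 from 101327874 to 101859166. Promoters from RefSeq on build GRCr8, 250 bases before to 50 after the start, matched 4 of the 5 symbols, all but Glra1. They are shown for their base composition and motifs. The Glra2 promoter is on the plus strand there, whereas the rn6 coordinates put Glra2 on the minus strand. Whether its window is the start of the measured transcript was not tested. A link between these and RNA level was not tested, and Glra1 could not be compared. Capitals mark, on both strands, the GC box (GGGCGG or CCGCCC), a GC-rich element bound by BMP-activated Smads (GGCGCC), a Smad binding element (CAGAC or GTCTG) and the TATA box (TATAAA or TTTATA).
Glrb promoter, chr2:168505565-168505864, minus strand: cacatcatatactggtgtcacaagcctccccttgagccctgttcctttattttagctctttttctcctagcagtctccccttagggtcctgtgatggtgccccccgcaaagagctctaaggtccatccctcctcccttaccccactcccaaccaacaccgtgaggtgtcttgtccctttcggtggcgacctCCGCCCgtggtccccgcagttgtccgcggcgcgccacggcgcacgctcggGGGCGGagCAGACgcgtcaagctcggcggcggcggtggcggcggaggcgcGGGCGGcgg
Gphn promoter, chr6:102687403-102687702, plus strand: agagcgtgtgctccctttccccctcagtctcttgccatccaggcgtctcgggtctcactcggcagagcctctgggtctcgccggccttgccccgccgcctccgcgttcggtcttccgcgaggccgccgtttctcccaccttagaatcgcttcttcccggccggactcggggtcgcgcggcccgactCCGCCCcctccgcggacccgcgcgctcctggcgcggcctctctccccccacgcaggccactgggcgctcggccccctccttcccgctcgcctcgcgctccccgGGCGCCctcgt
Glra2 promoter, chrX:32651937-32652236, plus strand: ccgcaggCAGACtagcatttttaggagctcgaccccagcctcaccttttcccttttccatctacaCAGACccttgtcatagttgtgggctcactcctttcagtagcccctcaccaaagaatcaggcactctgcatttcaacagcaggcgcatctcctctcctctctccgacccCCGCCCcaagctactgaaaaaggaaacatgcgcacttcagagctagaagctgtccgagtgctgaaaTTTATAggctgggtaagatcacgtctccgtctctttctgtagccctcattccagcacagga
Glra3 promoter, chr16:39856957-39857256, minus strand: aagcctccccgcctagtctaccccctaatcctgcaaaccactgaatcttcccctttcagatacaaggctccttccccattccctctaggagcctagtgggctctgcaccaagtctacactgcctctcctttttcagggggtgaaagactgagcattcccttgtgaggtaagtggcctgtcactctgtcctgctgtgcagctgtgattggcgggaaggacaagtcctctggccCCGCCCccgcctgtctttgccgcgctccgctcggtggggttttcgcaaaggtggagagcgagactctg

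The Glrb window had 65% G and C with 28 CG dinucleotides, and the Gphn window 74% with 41. The Glra2 window had 52.3% with 9, and the Glra3 window 58.0% with 10. Over 33469 rat promoters of the same length the medians were 51.7% and 7, and 87.3% and 97.2% of them held fewer CG dinucleotides than Glrb and Gphn. A GC box was found 3 times in the Glrb window and once in each of the other 3, and 33.1% of all promoters hold it. The GC-rich Smad element was found once, in Gphn, and 11% of promoters hold it. Glrb held 1 Smad binding element and Glra2 held 2, and 50.1% of promoters hold it. The letters of a TATA box were found only in the Glra2 window among these 4, and 14.2% of promoters hold them on either strand. In Glra2 they read TTTATA, the form of the opposite strand. Their distance from the start was not considered, so this match does not show a working TATA box. These are matches of letters, with no measurement of binding.

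**Figure D1:**
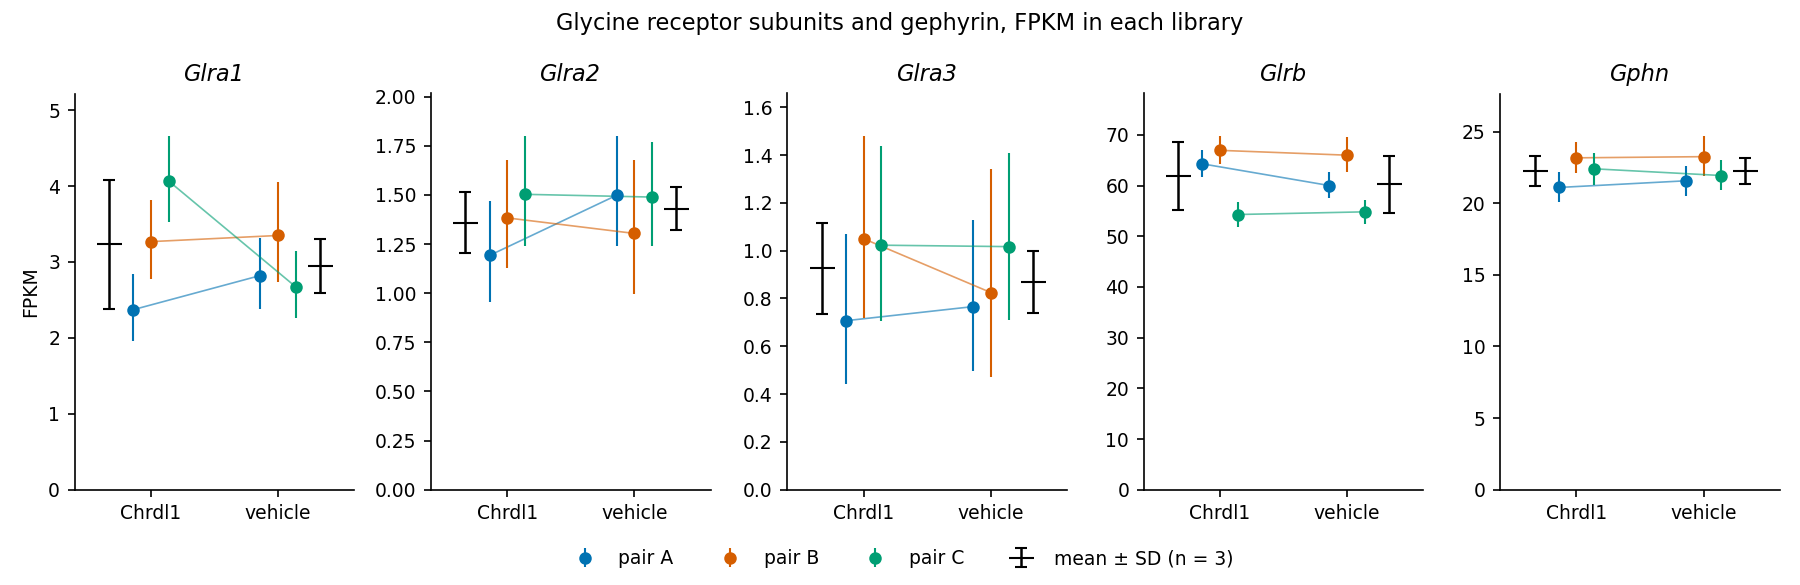
FPKM (vertical axes, each from 0) of the 5 genes in Chrdl1 libraries (left) and vehicle libraries (right); lines join the libraries of a pair, coloured bars are exact 95% Poisson intervals of the reads and black bars give mean ± SD (n = 3). Glrb separates by pair, with 54.3 and 54.8 FPKM in pair C, and Glra1 in the Chrdl1 library of pair C stands highest at 4.07 FPKM.

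None of the 5 genes passed the test between Chrdl1 and vehicle. By limma on log2(FPKM + 1), 0 of the 5 were called at an adjusted p under 0.05, where 0.0% of the 10390 tested transcripts were; all 5 had a limma adjusted p of 0.9998. At an unadjusted p under 0.05, limma had 18 transcripts (0.173%) and 0 of the 5. With the title code as a replicate block it called 0.0% too, with 535 transcripts (5.15%) at an unadjusted p under 0.05 and again 0 of the 5. The fit without the block counts differences between pairs as spread, which makes it the more conservative. Its median distance from the estimate to the end of the 95% interval was 0.37, against 0.19 with the block. Limma voom on reads recovered from the FPKM called 0 transcripts, with 5 at an unadjusted p under 0.05, and 2 with the block, neither of them among the 5. Chrdl1 and vehicle values overlapped for all 5 genes. Every Chrdl1 library lay above every vehicle library for 0.577% of tested transcripts and below for 1.87%. None of the 5 kept 1 direction in all 3 pairs, where 7.55% of transcripts were higher and 19.5% lower. The median log2 fold change of the 5 was 0.035, beside -0.028 for all tested transcripts.

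Glra1 had the largest log2 difference within a pair among the 5. It was at 2.37, 3.27 and 4.07 FPKM in the Chrdl1 group (pairs A, B, C) and at 2.82, 3.35 and 2.67 FPKM in the vehicle libraries. The Chrdl1 library of pair C was the highest of the 6 and that of pair A the lowest. The group means were 3.24 ± 0.848 FPKM in Chrdl1 and 2.95 ± 0.356 FPKM in vehicle libraries (SD, n = 3 each). Limma put the log2 fold change at 0.085 ± 0.19 (SE), its 95% interval spanning -0.38 to 0.55. By pair the change was -0.18, -0.027 and 0.46. In pair C the counting intervals did not meet, at 3.53 to 4.66 FPKM from 208 reads in the Chrdl1 and 2.26 to 3.14 FPKM from 150 reads in the vehicle library. In pairs A and B they overlapped. Without pair C the log2 fold change was -0.10 by limma with the block. In pair C the median log2 fold change of transcripts within 10% of a gene's length was -0.13 at the length of Glra3, -0.078 at that of Glra1 and -0.028 at that of Glra2. Of the 1293 transcripts of like length to Glra1, 8.66% lay below it in pair A, 50% in pair B and 99.0% in pair C. Bipolar cell and photoreceptor markers, given above, differed little between the libraries of pair C. The 12 amacrine cell markers summed to 232 FPKM in the Chrdl1 and 242 FPKM in the vehicle library of pair C. Most of each sum came from Pax6, Gad2 and Calb2. These were at 68.4, 59.3 and 65.3 FPKM in the Chrdl1 and 70.4, 53.3 and 77.0 FPKM in the vehicle library. Tfap2a, Slc6a5 and Chat were under 1 FPKM in all 6 libraries. The part of bipolar, photoreceptor or amacrine cells in the Glra1 difference was not tested.

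Glra2 and Glra3 were near the limit of what the depth resolves. Glra2 was at 1.192, 1.383 and 1.503 FPKM in the Chrdl1 group (pairs A, B, C) and at 1.498, 1.304 and 1.489 FPKM in the vehicle libraries. The means were 1.36 ± 0.157 FPKM in Chrdl1 and 1.43 ± 0.110 FPKM in vehicle libraries (SD, n = 3 each), from 60 to 125 reads per library. The log2 fold change was -0.044 ± 0.16 (SE), with a 95% interval from -0.43 to 0.34. The Chrdl1 library of pair A was the lowest of the 6. Glra3 was at 0.707, 1.05 and 1.02 FPKM in the Chrdl1 libraries and at 0.766, 0.825 and 1.02 FPKM in the vehicle libraries of the same pairs, from 16 to 36 reads. Both pair A libraries were the lowest of their group. Its means were 0.927 ± 0.191 FPKM in Chrdl1 and 0.869 ± 0.131 FPKM in vehicle libraries (SD, n = 3 each), and its log2 fold change was 0.041 ± 0.18 (SE), with a 95% interval from -0.38 to 0.47. Glra3 passed the filter of 1 FPKM in 3 libraries with exactly 3, of which 2 were Chrdl1 libraries. Since 1 is added before taking logs, these intervals understate the room for change in such low genes: with 0.1 added the interval for Glra3 ran from -0.76 to 0.91. The chi-square of the reads against depth, about 1 per degree of freedom where libraries differ by counting alone, was 0.832 for Glra2 and 0.775 for Glra3. Differences between the libraries in these 2 genes were therefore not detectable at this depth.

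Glrb differed between pairs, and its difference between treatments did not pass the test. It was at 64.30, 66.96 and 54.30 FPKM in the Chrdl1 group (pairs A, B, C) and at 60.01, 66.01 and 54.83 FPKM in the vehicle libraries. Both libraries of pair B were above, and both of pair C below, those of pair A. The means were 61.9 ± 6.68 FPKM in Chrdl1 and 60.3 ± 5.59 FPKM in vehicle libraries (SD, n = 3 each). Limma put the log2 fold change at 0.035 ± 0.12 (SE), its 95% interval spanning -0.24 to 0.31. With the title code as a block the SE was 0.062 and the interval ran from -0.10 to 0.17. The largest gap within a pair was 4.29 FPKM, and the pair means spanned 11.9 FPKM. In a limma F test of the title code Glrb was the 1 gene of the 5 called (F = 7.01, adjusted p = 0.0237), with pair B above pair A by 0.096 and pair C minus pair B at -0.28 on the log2 scale. The code was called for 47.4% of tested transcripts, so a call is common, and 1 of 5 members is below that share. Glra1, Glra2, Glra3 and Gphn had limma adjusted p of 0.288, 0.830, 0.489 and 0.485. Summed markers of 6 lists were highest in pair C, where Glrb was lowest. These were bipolar cell, photoreceptor, microglia, Müller glia and astrocyte, amacrine cell, and endothelial and mural markers. Microglia markers in pair A, at 102.8 FPKM in the Chrdl1 and 119 FPKM in the vehicle library, were close to those of pair C. Markers of the oligodendrocyte lineage were highest in pair B, and RGC markers in pair A. Summed Müller glia and astrocyte markers in pair C were 149.5 FPKM in the Chrdl1 and 161 FPKM in the vehicle library, against 68.8 to 103 FPKM elsewhere. The part of these cells in the Glrb difference was not tested.

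Gphn had the lowest coefficient of variation of the 5. It was at 21.1, 23.2 and 22.4 FPKM in the Chrdl1 group (pairs A, B, C) and at 21.6, 23.3 and 21.9 FPKM in the vehicle libraries. Libraries of a pair lay within 0.469 FPKM of each other, and pair B was the highest in both groups. The means were 22.2 ± 1.05 FPKM in Chrdl1 and 22.3 ± 0.886 FPKM in vehicle libraries (SD, n = 3 each), from 1050 to 1808 reads. The log2 fold change was -0.0019 ± 0.087 (SE), with a 95% interval from -0.21 to 0.20. The coefficient of variation over the 6 libraries was 3.9% for Gphn, against 9.13% for Glrb, 9.11% for Glra2, 16.7% for Glra3 and 19.5% for Glra1. Counting alone gives about 2.53% for Gphn, 2.22% for Glrb, 9.97% for Glra2, 19.1% for Glra3 and 8.25% for Glra1. The chi-square of the reads against depth was 2.2 per degree of freedom for Gphn, 17.2 for Glrb and 5.95 for Glra1. It was thus above the values of Glra2 and Glra3 given above, 0.832 and 0.775, in all 3.

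**Figure D2:**
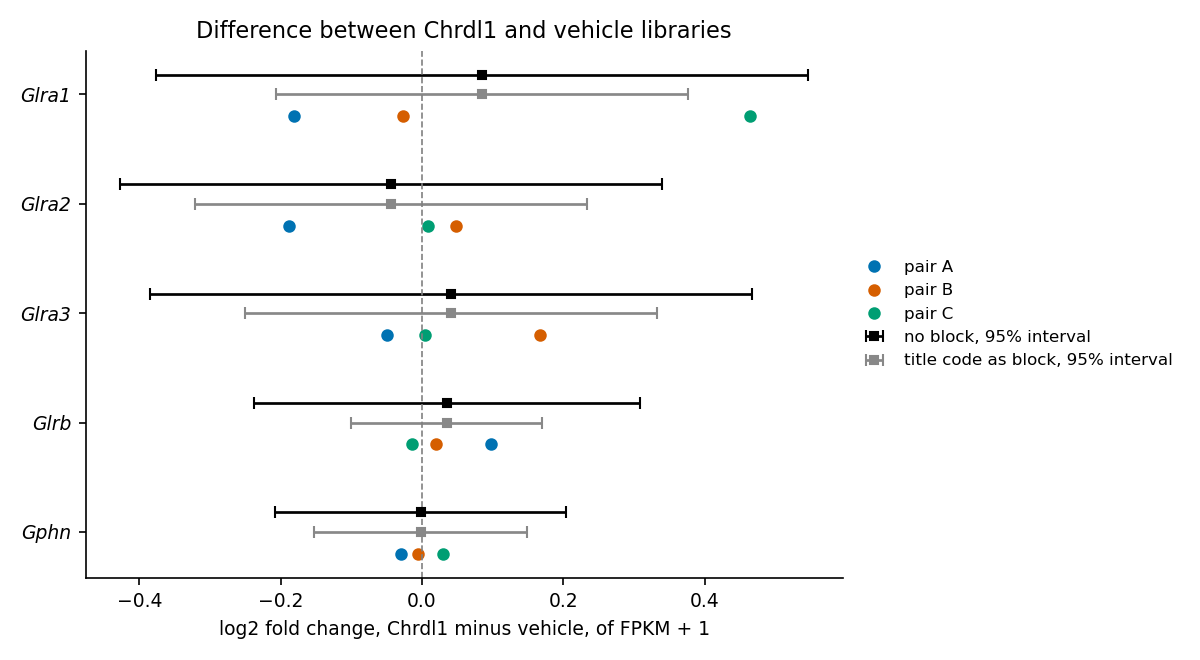
Log2 fold change of FPKM + 1, Chrdl1 minus vehicle (horizontal axis), of the 5 genes; squares with bars are limma estimates with 95% intervals, without (black) and with (grey) the title code as a block, and dots are the 3 pairs. All intervals include 0, and the pair C dot of Glra1 lies at 0.46.

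Proportions between the subunits, which a change of library scale does not move, had group means that differed by less than the SD of either group. Glra1 made up 58.2% ± 3.17 of the summed FPKM of Glra1, Glra2 and Glra3 in Chrdl1 and 56.1% ± 4.79 in vehicle libraries (SD, n = 3 each). The Glra2 share was 27.9%, 24.3% and 22.8% in the Chrdl1 group (pairs A, B, C) and 29.5%, 23.8% and 28.8% in the vehicle libraries. It averaged 25.0% ± 2.63 in Chrdl1 and 27.3% ± 3.08 in vehicle libraries, a difference of -2.35 percentage points (exact permutation p = 0.3, two-sided). With 3 libraries against 3 the smallest p this test can give is 0.1. Glrb was 15.1, 11.7 and 8.24 times the summed alpha FPKM in the Chrdl1 group (pairs A, B, C) and 11.8, 12.0 and 10.6 times in the vehicle libraries. The Chrdl1 libraries held both the highest and the lowest ratio. The mean log2 ratios were 3.50 ± 0.437 in Chrdl1 and 3.52 ± 0.100 in vehicle libraries (SD, n = 3 each; exact permutation p = 0.8, two-sided). Gphn over Glrb was 0.328, 0.346 and 0.413 in the Chrdl1 libraries and 0.359, 0.352 and 0.400 in the vehicle libraries, highest in pair C in both groups. Its mean log2 ratios were -1.47 ± 0.173 in Chrdl1 and -1.43 ± 0.0988 in vehicle libraries (SD, n = 3 each; exact permutation p = 0.7, two-sided).

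**Figure D3:**
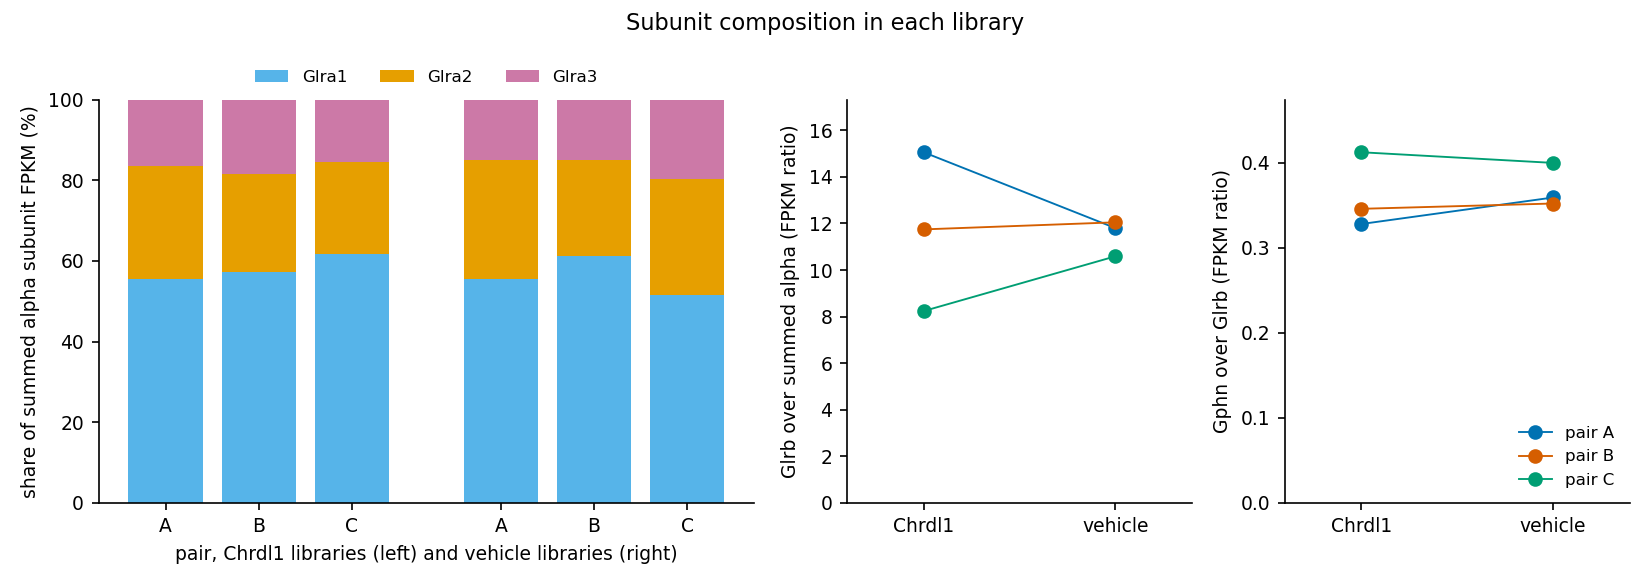
Left, share of Glra1, Glra2 and Glra3 in their summed FPKM (%) in each library; middle and right, FPKM ratios of Glrb to summed alpha subunits and of Gphn to Glrb, with lines joining the libraries of a pair. Glra1 holds 51.6% to 61.7% in each library, and the Glrb ratio spans 8.24 to 15.1 in Chrdl1 and 10.6 to 12.0 in vehicle libraries.

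None of the other genes of inhibitory transmission that were tested passed between treatments. Of 13 genes of glycine supply 8 were tested and 0 called, with 3 positive and 5 negative log2 fold changes and a median of -0.012. Beside this and the lists below stand all 10390 tested transcripts, with 0 called. Of these, 3989 had positive and 6401 negative log2 fold changes, with a median of -0.028. Slc6a9, encoding the glycine transporter GlyT1, averaged 8.21 ± 0.709 FPKM in Chrdl1 and 8.43 ± 0.896 FPKM in vehicle libraries (SD, n = 3 each). Slc6a5, encoding GlyT2 of glycine-releasing neurons, was at most 0.025 FPKM, from 0 to 4 reads. Slc32a1, the vesicular transporter of glycine and GABA, was at 0.703, 0.276 and 2.02 FPKM in the Chrdl1 group (pairs A, B, C) and at 0.567, 0.347 and 2.88 FPKM in the vehicle libraries. It was highest in pair C in both groups. Slc6a5 and Slc32a1 did not reach the filter, so neither was tested. The amino acid transporter genes Slc38a2 and Slc38a1, and Dld of the glycine cleavage system, led the list with means over 6 libraries of 57.2, 57.2 and 31.1 FPKM.

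Of 31 genes for partners of gephyrin and other inhibitory postsynaptic proteins, 28 were in the table and 27 tested. Among these 0 were called, with 11 positive and 16 negative fold changes and a median of -0.0078. Nlgn2, an adhesion molecule of inhibitory synapses, averaged 40.4 ± 4.42 FPKM in Chrdl1 and 40.7 ± 3.85 FPKM in vehicle libraries (SD, n = 3 each). The motor gene Kif5a, the dynein light chain gene Dynll2 and Gabarap, of receptor trafficking, were the most abundant, at means of 252, 186 and 172 FPKM.

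The 6 GABA-A subunit genes whose receptors cluster with gephyrin had 0 calls, 4 positive and 2 negative fold changes and a median of 0.065. Their median was -0.069 in pair A, 0.037 in pair B and 0.30 in pair C. Gabra2 was at 50.2, 40.5 and 44.1 FPKM in the Chrdl1 group (pairs A, B, C) and at 48.3, 45.1 and 32.2 FPKM in the vehicle libraries. It was higher in the Chrdl1 library of pairs A and C and lower in that of pair B, with log2 fold changes of 0.054 in pair A, -0.15 in pair B and 0.44 in pair C. Over all libraries Gabra2 averaged 44.9 ± 4.91 FPKM in Chrdl1 and 41.9 ± 8.51 FPKM in vehicle libraries (SD, n = 3 each), and limma put its log2 fold change at 0.12 ± 0.17 (SE).

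Chloride transport genes, which set the driving force of these receptors, numbered 14, of which 11 were tested and 0 called, with 7 positive and 4 negative fold changes and a median of 0.028. Slc12a5, encoding the chloride extruder KCC2, was at 19.3, 20.7 and 31.9 FPKM in the Chrdl1 group (pairs A, B, C) and at 19.0, 22.8 and 34.2 FPKM in the vehicle libraries. It was highest in pair C in both groups (limma F test of the title code, adjusted p = 4.7e-05). Slc12a2, encoding the chloride importer NKCC1, averaged 5.89 ± 2.01 FPKM in Chrdl1 and 5.67 ± 1.25 FPKM in vehicle libraries (SD, n = 3 each). The most abundant of the list were the chloride exchanger gene Clcn3 and the kinase gene Stk39, at means of 29.6 and 26.3 FPKM.

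Of 9 molybdenum cofactor genes, the pathway of gephyrin outside the synapse, 5 were tested and 0 called, with 2 positive and 3 negative fold changes and a median of -0.038. Mocs2, of the step before gephyrin, averaged 33.1 ± 1.995 FPKM in Chrdl1 and 35.2 ± 2.89 FPKM in vehicle libraries (SD, n = 3 each). Mocs1, of the first step, averaged 3.71 ± 0.552 FPKM in Chrdl1 and 3.67 ± 1.45 FPKM in vehicle libraries. Suox, a sulfite oxidase that uses the cofactor, and Cyb5a averaged 11.1 and 29.4 FPKM. Of 12 genes known to modify glycine receptors or their trafficking, all 12 were tested and 0 called, with 7 positive and 5 negative fold changes and a median of 0.0079. The G protein gene Gnb1, the synapsin gene Syn1 and the adhesion gene Ncam1 led that list at 149.8, 139 and 131 FPKM. Between the title codes, 4 of 8 glycine supply, 14 of 27 partner, 5 of 6 GABA-A, 6 of 11 chloride, 2 of 5 cofactor and 9 of 12 modifier genes were called, beside the 47.4% of all tested transcripts.

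**Figure D4:**
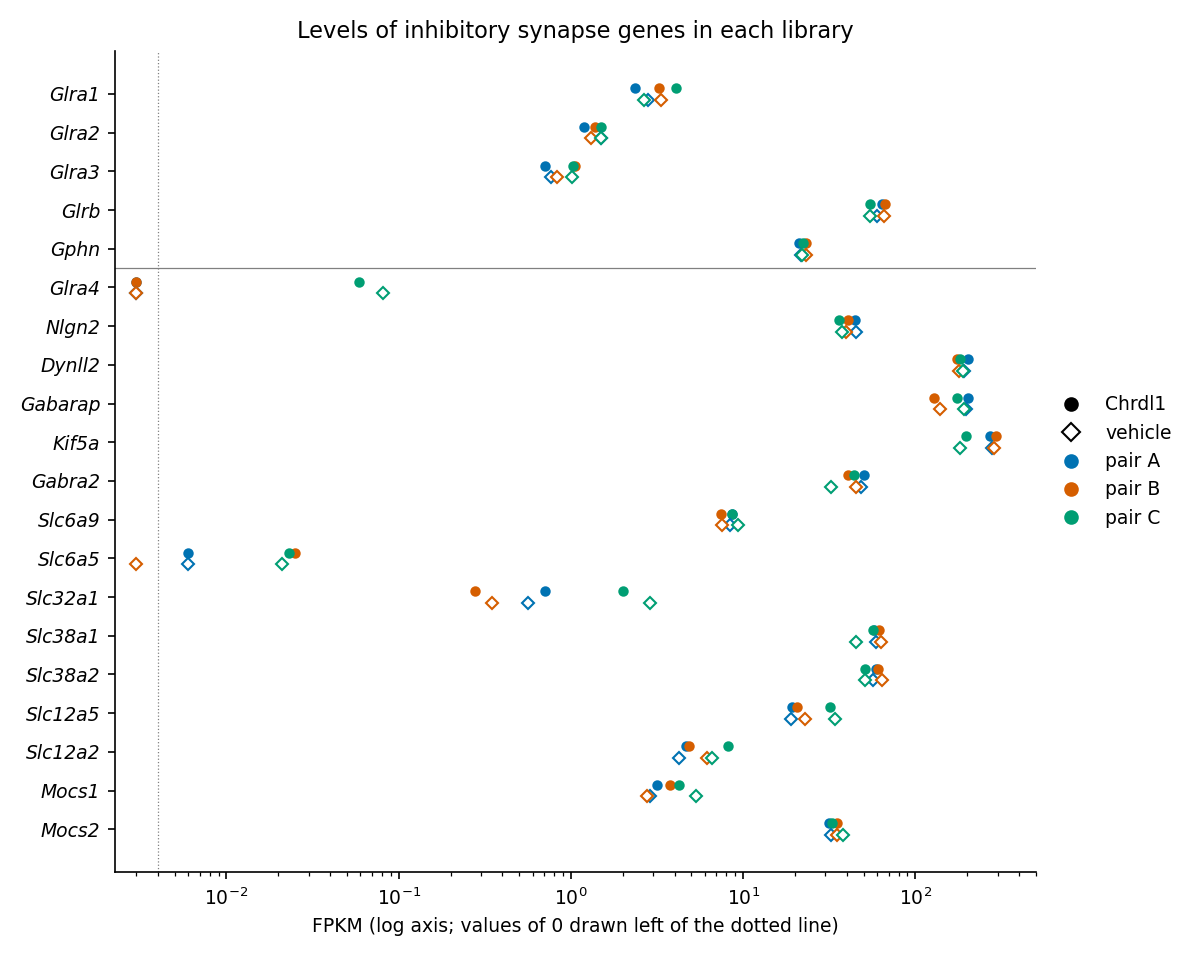
FPKM (horizontal log axis) of the 5 genes (above the line) and of other inhibitory synapse genes in each library; filled circles are Chrdl1 and open diamonds vehicle libraries, coloured by pair, and values of 0 are drawn left of the dotted line. Glrb and Gphn lie near Nlgn2 and Gabra2, and the alpha subunits lie lower, at 0.707 to 4.07 FPKM.

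Across the 6 libraries the 5 genes did not share 1 pattern. Pearson's r of log2(FPKM + 1) was 0.70 between Glra1 and Gphn and -0.73 between Glra2 and Glrb, the highest and lowest of the 10 pairings, over libraries that fall into 3 pairs. Among 4389 tested transcripts spanning at least 0.5 on this scale, those most like Glrb included Prkg2 and Cyp4x1 (r = 0.98 each). Prkg2, a cGMP-dependent protein kinase gene, was at 3.197, 3.485 and 2.005 FPKM in the Chrdl1 group (pairs A, B, C) and at 2.508, 3.848 and 2.006 FPKM in the vehicle libraries. It was lowest in pair C in both groups, as Glrb was. Most like Glra1 were Tcf4, Dcp1a and Ogg1 (r = 0.98, 0.96 and 0.96), of which Tcf4 was at 7.09 FPKM in the Chrdl1 and 5.28 FPKM in the vehicle library of pair C. Most like Gphn were Flt3, Per2 and Srek1, each at r of 0.99 or above. Glra2 went most with Fam161a, Msl3l2 and Def6 (r = 0.93, 0.93 and 0.91), and Glra3 with Suv420h2, Znrd1as1 and Cep95, each at r of 0.99 or above. With 6 libraries and so many transcripts such values arise readily, and those of Glra2 and Glra3 rest on variation no larger than counting error.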

How the data were processed

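Polyadenylated RNA of 6 libraries was sequenced from stranded Illumina kits, per the labels' protocols. The authors deposited 1 table of FPKM values with transcript lengths and rn6 coordinates. Per the submitters' processing notes, STAR 2.4.0k, HOMER 4.8.3 and FastQC were used. The sources used here do not give the annotation release, strand setting or read filters.

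Whole reads were recovered from FPKM and length: 99.99% or more of readable values were whole multiples of 1 read within 0.0005 FPKM. Intervals on reads cover counting error only. A transcript entered the test if 3 or more libraries reached FPKM 1, which 10390 did. Limma 3.58.1 (R 4.3.3; trend, two-sided) was fitted to log2(FPKM + 1), with treatment as the only term and Benjamini-Hochberg adjustment over all of them. Alternatives were the title code as replicate block, other pseudocounts, filters and scalings, voom, and leaving out libraries. Ratios were compared with exact permutation tests (scipy 1.17.1) and with exact sign-flip tests of the differences within pairs. Libraries sharing a title code deviated together (r = 0.82, 0.86 and 0.84 across genes), so the code was taken to pair them.

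The genes, lists and alternatives were chosen with earlier results of these data known. Named genes were the 5 members, the 3 transcripts most correlated with each, and from each list the 3 most abundant genes and defining genes such as Slc6a5 and Nlgn2. Some genes the rule names are not reported here.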

Additional observations from a re-analysis of the deposited data

How the results depend on the processing

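No alternative called any of the 5 genes between treatments: over 92 values, each of 1 gene under 1 alternative, the lowest limma adjusted p was 0.899. The replicate block left each fold change as it was (0.085 for Glra1), called 0 transcripts and changed no call (limma adjusted p 0.945 to 0.997). Signs are not stable, the estimates being near 0. Leaving out 1 library gave -0.054 to 0.24 for Glra1, -0.088 to 0.0081 for Glra2, -0.0062 to 0.13 for Glra3, -0.030 to 0.12 for Glrb and -0.031 to 0.033 for Gphn. The sign turned without the Chrdl1 library of pair C for Glra1, of pair A for Glra2 and of pair B for Glra3. For Glrb it turned without the Chrdl1 library of pair B or the vehicle library of pair C, and for Gphn without the Chrdl1 library of pair A or the vehicle library of pair B. With the block on the other pairs, Glra1 turned to -0.10 without pair C, Glra2 to 0.028 and Gphn to 0.012 without pair A, and Glra3 to -0.022 without pair B. Gphn turned to 0.024 with quantile normalization, with or without the block, and to 0.0015 with voom. Leaving out 1 library gave differences of -4.12 to -1.25 points for the Glra2 share, -0.22 to 0.21 for log2 Glrb over alpha and -0.13 to 0.030 for log2 Gphn over Glrb; undivided by length, the log2 Glrb over alpha difference was 0.0013. The causes were not tested. Transcripts called numbered 2 with voom and the block, and 25 and 34 with the block without pair A and without pair B, with 1 residual degree of freedom per gene; without pair C they numbered 0. The Glrb title code call held under all alternatives run (adjusted p 0.0088 to 0.0432), and the other 4 genes were not called (0.111 to 0.842). The filter at FPKM of 5 left out the alpha subunits. Fits without a filter but with the block were added after seeing the data.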
